A study of Mus musculus with 6 samples.

Results

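Lymphocytes find their place in tissue through receptors that follow chemical gradients, and the 10 genes described here encode the main ones in B cells with the switches that control their use. They were taken by symbol from the deposited table of 20591 genes, where 10 of 10 were found: the chemokine receptors Ccr7, Cxcr5, Cxcr4, Ccr6 and Cxcr3, the oxysterol receptor Gpr183, the sphingosine 1-phosphate receptors S1pr1 and S1pr4, the transcription factor Klf2 and the activation antigen Cd69. RNA sequencing was done on B cells sorted from mouse colons, with 3 libraries from mice treated with DMSO, a solvent control, and 3 from mice treated with lenvatinib, which blocks the tyrosine kinase receptors for VEGF and FGF among others. The series title sets this in work on colitis, on the endothelial adhesion molecule MAdCAM-1 and on how B cells reach the gut. The sources used here do not state strain, sex, age, dose, length of treatment or whether the mice had colitis. The labels number the libraries as biological replicates without naming animals, so the p-values below rest on the variation among these libraries, and that variation may be technical.

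As background, a chemokine is a small secreted protein that cells sense through a G protein-coupled receptor and move towards. CCR7 draws lymphocytes to T cell zones, CXCR5 draws B cells to follicles, and GPR183 draws them to the follicle's outer edge and to the border between these areas. Exit works through sphingosine 1-phosphate, which is abundant in blood and lymph: cells that carry S1PR1 leave, KLF2 switches the S1pr1 gene on, and CD69 binds S1PR1 and takes it off the surface, which holds activated cells in place.

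Levels are given in FPKM, fragments normalised to gene length and sequencing depth, scaled between libraries, so that genes of different length can be compared. Errors after ± are SDs over n = 3 libraries. Changes are differences of log2(scaled FPKM + 1), lenvatinib minus DMSO, with standard errors from a limma fit over 9937 tested genes, and a gene is said to have risen or fallen where its Benjamini-Hochberg adjusted p lay below 0.05. Library totals recovered from the values lay between 26635279 and 31655500 reads.

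The sorted cells carried B cell genes at high levels in both groups, among them Cd79a, which transmits the signal of the antigen receptor, at 1035 ± 21.6 with DMSO and 802 ± 20.9 with lenvatinib. Of 17 B cell identity genes 16 fell, with a median change of −0.24, and their summed level lay between 3858 and 3900 with DMSO and between 3246 and 3305 with lenvatinib. Many genes typical of T, natural killer or epithelial cells were higher. The summed level of 14 T cell genes went from between 131 and 136 to between 215 and 225. Of 12 tested genes 8 were higher and 1, Cd2, was lower, while Cd4, Cd5 and Cd8b1 did not pass. Cd2 was the highest of these genes in both groups, at 80.3 ± 1.31 and 69.9 ± 4.56, and so weighs most in the sums. For 12 genes of natural killer and innate lymphoid cells the sums were 21.4 to 23.4 and 89.4 to 95.2, with 7 of 8 tested genes higher, while Ncr1, Eomes and Gata3 were among those with means below 1 in both groups. For 12 colon epithelial genes the sums were 14.3 to 15.5 and 63.2 to 67, with 8 of 8 tested genes higher, and Krt20, Vil1 and Muc2 had means below 1 in both groups. Of the tested genes, 5 of the 8 epithelial ones, 1 of the 8 natural killer and innate lymphoid ones and 1 of the 3 neutrophil ones named next had DMSO means below 1, so they could enter the test only with the help of their lenvatinib libraries, and these counts are no support for a rise. Sums for 11 macrophage and dendritic cell genes were 60.5 to 64.3 and 71.6 to 80.9, with 2 of 9 tested genes higher, and for 7 neutrophil genes 6.43 to 7.44 and 12 to 17.1, with 2 of 3 higher. Of 7 endothelial genes 6 had means below 1 in both groups, and Pecam1, which lymphocytes also express, fell from 42.3 ± 0.567 to 32.9 ± 0.16 (limma adjusted p = 0.000328). Of 7 fibroblast or muscle genes 6 had means below 1 in both groups, and Acta2, of smooth muscle, rose from 0.749 ± 0.119 to 1.87 ± 0.635 (limma adjusted p = 0.0187), it too with a DMSO mean below 1. Of 7 germinal centre genes 2 rose and 0 fell, and of 5 tested plasma cell genes 1 rose. Beside all these counts, 10.4 percent of all tested genes rose and 8.21 percent fell. With so few genes, 2 of 9, 2 of 7 and 1 of 5 are not read as shifts of those cell types. In bulk libraries, fewer cells of a type and less RNA per cell cannot be told apart. The part of these shifts in the changes described next was not tested, and each gene is therefore also given relative to the B cell identity genes.

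The receptors that guide B cells to T cell zones and out of tissue were modestly lower with lenvatinib, and the follicle receptor was not. Ccr7, Cxcr4, S1pr1 and Klf2 fell by nearly the same proportion, to between 0.814 and 0.835 of their DMSO mean. Gpr183 rose to 1.21 of its DMSO mean. Cxcr5, S1pr4, Ccr6, Cxcr3 and Cd69 did not pass the test. Thus 4 of 10 genes fell, where 8.21 percent of all tested genes did, and 1 of 10 rose, where 10.4 percent did. The changes were of ordinary size. For each gene that passed, between 14.7 percent (S1pr1) and 18.8 percent (Klf2) of tested genes changed more, in either direction. The 10 genes were chosen with earlier results of these data known. The median change of the 10 genes was −0.12, against 0.01 over all tested genes. Scaled instead to the 17 B cell identity genes, 0 of 10 fell and 5 of 10 rose. Over all tested genes that scaling moved the median to 0.22, with 4851 genes higher and 173 lower, against 1038 and 816 otherwise. Changes and counts given below relative to the B cell identity genes stand beside that median of 0.22. Counts of genes that rose under that scaling are not read as particular to the genes listed.

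**Figure D1:**
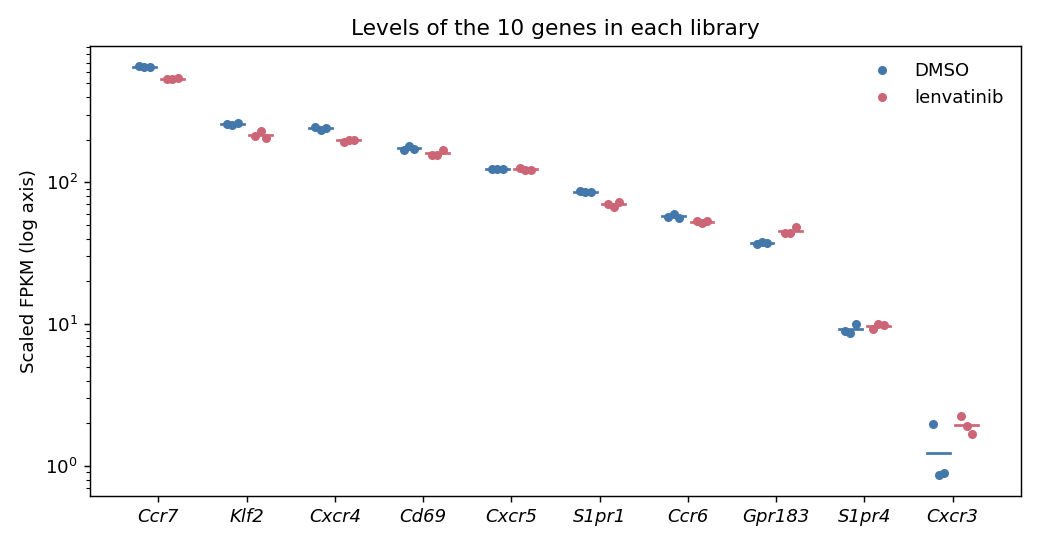
Levels of the 10 genes in scaled FPKM on a log axis, ordered by their DMSO mean, with 1 point per library and a bar at each group mean. Ccr7 stands highest at 654 with DMSO and 540 with lenvatinib, Cxcr3 lowest at 1.24 and 1.95, and the order of the genes is the same in both groups.

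The 10 genes spanned a wide range of levels. In DMSO libraries the order ran from Ccr7 through Klf2, Cxcr4, Cd69, Cxcr5, S1pr1, Ccr6, Gpr183 and S1pr4 to Cxcr3, and the lenvatinib libraries gave the same order. No neighbours in this order overlapped in their library values, in either group. Ccr7 ranked 111 in the table by its DMSO mean. Among the 8 surface receptors for chemokines, oxysterols and sphingosine 1-phosphate, it made up 54 ± 0.156 percent of the summed level with DMSO and 51.8 ± 0.168 percent with lenvatinib. That sum was 1211 ± 6.42 and 1041 ± 9.74. In the same terms the share of Cxcr5 was 10.3 ± 0.0216 and 11.9 ± 0.306 percent, and that of Gpr183 was 3.09 ± 0.06 and 4.37 ± 0.196 percent. These shares describe transcript levels per length and do not depend on how libraries were scaled.

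Ccr7, the receptor for the T zone chemokines CCL19 and CCL21, measured 658, 654 and 651 in the DMSO libraries and 539, 537 and 543 in the lenvatinib libraries. All lenvatinib values lay below all DMSO values, and the spread within each group was small beside the gap. The change was −0.28 (SE 0.02, limma adjusted p = 4.06e-05). Each library held between 29713 and 40155 Ccr7 reads, and the coefficient of variation among DMSO libraries, 0.534 percent, was close to the 0.515 percent that counting alone gives. Groups did not overlap for 7 of the 10 genes, 6 of them lower with lenvatinib, where 37.1 percent of tested genes did not overlap in either direction and 18.2 percent lay lower. Relative to the B cell identity genes Ccr7 changed by −0.03 (95 percent interval −0.09 to 0.03, adjusted p = 0.349).

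Cxcr5, the receptor for the follicle chemokine CXCL13, measured 125, 124 and 124 with DMSO and 127, 121 and 122 with lenvatinib. These values overlapped, with 1 lenvatinib library above and the others below the DMSO libraries. The change was −0.01 (95 percent interval −0.08 to 0.05, limma adjusted p = 0.816), an interval that leaves out changes of the size seen for Ccr7. Its sign turned with FPKM as deposited and without lenvatinib replicate 2. Relative to the B cell identity genes Cxcr5 was higher by 0.23 (SE 0.03, adjusted p = 0.000627). That is near the median of 0.22 over all tested genes under that scaling, so it marks no rise particular to Cxcr5.

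The balance between these receptors could be read within each library, where scaling cancels. The level of Cxcr5 was 0.19 to 0.191 of that of Ccr7 in the DMSO libraries and 0.225 to 0.236 in the lenvatinib libraries. The log2 ratio was higher by 0.26 with lenvatinib, and the groups did not overlap. An exact two-sided permutation test gave p = 0.1, the smallest that 3 libraries against 3 allow, and 0.1 after adjustment over the 3 ratios tested.

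Cxcr4, the receptor for CXCL12, which holds B cells in bone marrow and in the dark zone of germinal centres, measured 244, 235 and 243 with DMSO and 193, 200 and 200 with lenvatinib. Every lenvatinib library was lower than every DMSO library. Its change of −0.28 (SE 0.03, limma adjusted p = 0.000188) was like that of Ccr7. The ratio of Ccr7 to Cxcr4, chosen after the values were seen, was 2.67 to 2.78 with DMSO and 2.69 to 2.78 with lenvatinib. Relative to the B cell identity genes Cxcr4 changed by −0.04 (adjusted p = 0.284).

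Ccr6, the receptor for CCL20, which guides B cells to the dome of Peyer's patches and isolated lymphoid follicles, measured 56.5, 60 and 55.8 with DMSO and 53.6, 51.3 and 53.2 with lenvatinib. The groups did not overlap, but the change of −0.12 (95 percent interval −0.22 to −0.03) did not pass the limma test (adjusted p = 0.0777). It passed when libraries were scaled to equal sums (adjusted p = 0.0374) and in limma-voom on the recovered reads (adjusted p = 0.0185). Scaled to the B cell identity genes the change turned to 0.12 (adjusted p = 0.0604).

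Cxcr3, a receptor for interferon-induced chemokines that is typical of activated T and natural killer cells and of some memory B cells, was barely present. It measured 1.98, 0.86 and 0.891 with DMSO and 2.26, 1.9 and 1.68 with lenvatinib, from 43 to 116 reads a library. DMSO replicate 1 lay among the lenvatinib values and apart from its own group. The change of 0.43 (95 percent interval 0.00095 to 0.85) did not pass (limma adjusted p = 0.154), and it did without DMSO replicate 1 (0.65, adjusted p = 0.0194). Relative to the B cell identity genes it was higher by 0.57 (adjusted p = 0.0284). In these libraries 8 of 12 tested T cell genes rose. Among them Cd3e, a chain of the T cell receptor complex, went from 2.6 ± 0.227 to 15.8 ± 0.306. Cd4, Cd5 and Cd8b1 did not pass, and Cd2 fell. The part of T and natural killer cells in the Cxcr3 values was not tested.

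**Figure D2:**
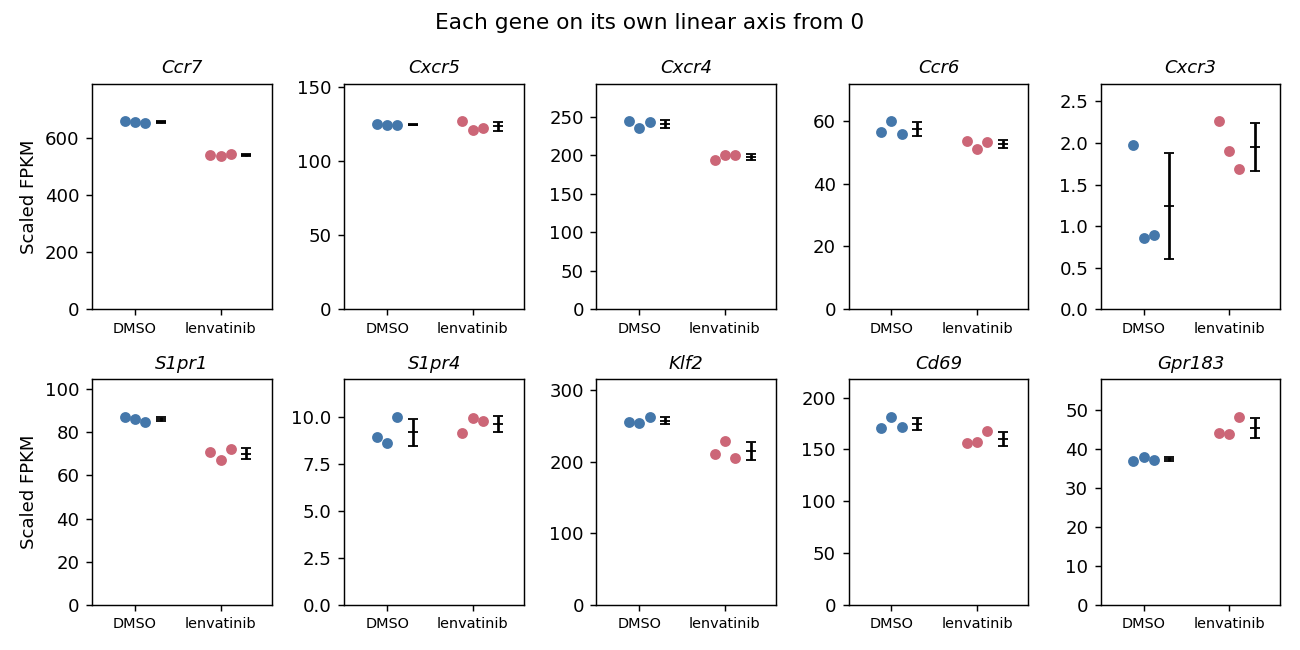
Scaled FPKM of each gene on its own linear axis from 0, with 1 point per library and the group mean ± SD (n = 3) beside the points. Ccr7, Cxcr4, S1pr1 and Klf2 sit lower with lenvatinib in every library, Gpr183 sits higher, and Cxcr5, S1pr4 and Cxcr3 overlap between the groups.

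S1pr1, the receptor that carries lymphocytes out towards lymph and blood, measured 87.1, 86.2 and 85 with DMSO. With lenvatinib it measured 70.7, 67.2 and 72.3. No library of one group reached the range of the other, and the change of −0.29 (SE 0.04, limma adjusted p = 0.000697) differed from those of Ccr7, Cxcr4 and Klf2 by less than its standard error. Relative to the B cell identity genes the change was −0.05 (adjusted p = 0.315).

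S1pr4, a related receptor of lymphocytes for the same lipid, was far less abundant. It measured 8.95, 8.66 and 10 with DMSO and 9.18, 9.97 and 9.83 with lenvatinib, and the groups overlapped. Its change of 0.06 (95 percent interval −0.11 to 0.23) did not pass (limma adjusted p = 0.619). Relative to the B cell identity genes it was higher by 0.29 (adjusted p = 0.00939), beside a median of 0.22 over all tested genes. S1pr1 stood at 8.47 to 9.95 times the level of S1pr4 in DMSO libraries and at 6.75 to 7.7 times in lenvatinib libraries. The groups did not overlap, and the log2 ratio differed by −0.36, with an exact permutation p of 0.1, the smallest possible here.

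Klf2, the transcription factor that keeps lymphocytes quiescent and switches on S1pr1, measured 256, 254 and 263 with DMSO and 211, 229 and 205 with lenvatinib. Lenvatinib replicate 2 lay closest to the DMSO group without reaching it, and the lenvatinib libraries differed more among themselves (coefficient of variation 6.01 percent) than counting gives (0.931 percent). The change was −0.26 (SE 0.04, limma adjusted p = 0.00236). The ratio of Klf2 to S1pr1, its target, was chosen after the values were seen and overlapped between groups, at 2.94 to 3.09 with DMSO and 2.83 to 3.41 with lenvatinib. Relative to the B cell identity genes Klf2 changed by −0.02 (adjusted p = 0.782).

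Cd69, an early activation antigen that interferon also induces and that opposes S1PR1 at the cell surface, measured 170, 181 and 171 with DMSO and 156, 157 and 168 with lenvatinib. The groups did not overlap, though lenvatinib replicate 3 came within a few units of the DMSO libraries. The change of −0.12 (95 percent interval −0.21 to −0.03) narrowly missed the threshold (limma adjusted p = 0.0584). It passed with equal sums (adjusted p = 0.0222), quantile normalization (0.0372), a mean filter of 5 (0.044), limma-voom (0.00529) and without lenvatinib replicate 3 (0.0265). Scaled to the B cell identity genes it turned to 0.12 (adjusted p = 0.03), below the median of 0.22 over all tested genes. In these libraries 19 of 20 tested interferon response genes fell, where 8.21 percent of all tested genes did. Cxcl10, outside that list and also induced by interferon, rose from 11.2 ± 2.43 to 18.3 ± 1.1. The summed level of the listed genes fell from between 585 and 631 to between 304 and 314. The part of that shift in the Cd69 values was not tested. The level of Cd69 was 1.96 to 2.1 times that of S1pr1 with DMSO and 2.21 to 2.33 times with lenvatinib, a log2 ratio higher by 0.17 (exact permutation p = 0.1, the smallest possible here).

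Gpr183, the oxysterol receptor also known as EBI2, was the member that rose. It measured 36.9, 38.1 and 37.3 with DMSO and 44.1, 43.9 and 48.3 with lenvatinib. All lenvatinib libraries lay above all DMSO libraries, and replicate 3 was the highest. The change was 0.27 (SE 0.05, limma adjusted p = 0.00438), and relative to the B cell identity genes it was 0.51 (SE 0.05, adjusted p = 5.72e-05). It was the member called higher under both scalings, the second of which put the median of all tested genes at 0.22. These are the libraries with the higher T cell and natural killer markers given above. The part of such cells in the Gpr183 values was not tested. The ratios of Gpr183 to Ccr7 and to Cxcr5 were chosen after the values were seen. Against Ccr7 it went from 0.0562 to 0.0582 with DMSO to between 0.0818 and 0.0889 with lenvatinib, and against Cxcr5 from 0.295 to 0.306 to between 0.348 and 0.394.

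**Figure D3:**
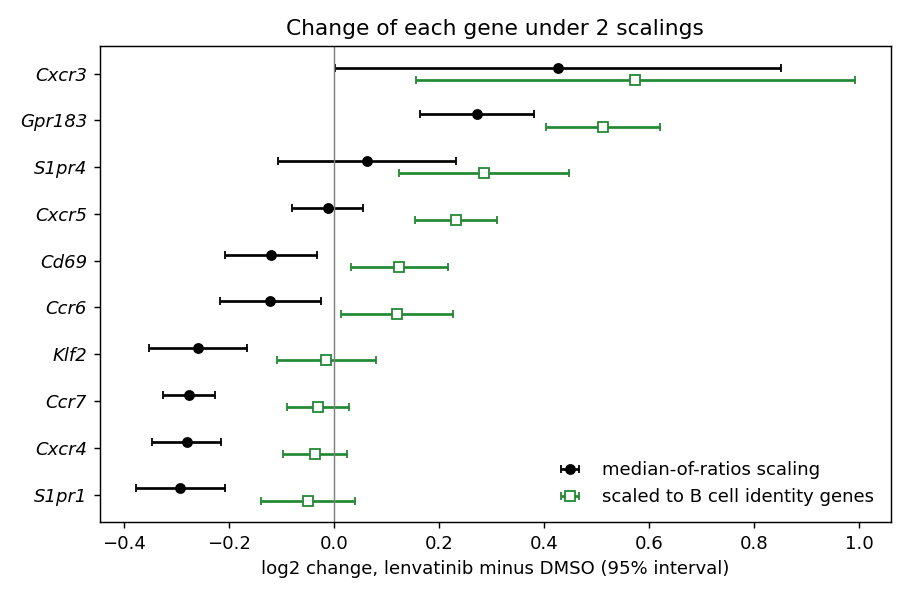
Log2 change of each gene, lenvatinib minus DMSO, with 95 percent intervals from limma, under median-of-ratios scaling (filled circles) and with libraries scaled to the B cell identity genes (open squares). Under the second scaling Ccr7, Cxcr4, S1pr1 and Klf2 lie between −0.05 and −0.02 with intervals across 0, and Gpr183 lies at 0.51.

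**Figure D4:**
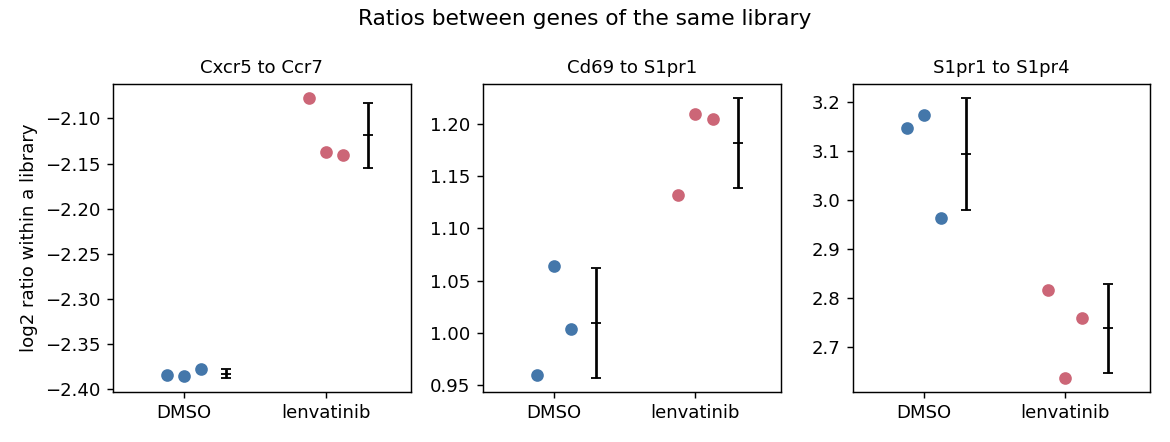
Log2 ratios of Cxcr5 to Ccr7, Cd69 to S1pr1 and S1pr1 to S1pr4 within each library, with the group mean ± SD (n = 3); the axes do not start at 0. The groups do not overlap in any of the 3 ratios, which differ by 0.26, 0.17 and −0.36.

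Promoter sequences are shown for the genes that fell or rose and had an entry in the RefSeq promoter table, which held 6 of the 10 genes. They give the 250 bases before the annotated start, in build GRCm38.p6, while the submitters' processing notes name GRCm39. Klf2 lies at chr8:72318812-72319061 on the plus strand, Cxcr4 at chr1:128592300-128592549 and Gpr183 at chr14:121965194-121965443, both on the minus strand. Capitals mark matches, on either strand, to CACCC, the core bound by KLF factors, and to palindromic motifs of MEF2 and NRF1 factors.
Klf2: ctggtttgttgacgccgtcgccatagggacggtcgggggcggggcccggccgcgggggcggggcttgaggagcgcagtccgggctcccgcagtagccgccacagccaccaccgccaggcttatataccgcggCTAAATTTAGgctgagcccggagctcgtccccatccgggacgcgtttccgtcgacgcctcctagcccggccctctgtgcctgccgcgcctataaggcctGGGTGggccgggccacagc
Cxcr4: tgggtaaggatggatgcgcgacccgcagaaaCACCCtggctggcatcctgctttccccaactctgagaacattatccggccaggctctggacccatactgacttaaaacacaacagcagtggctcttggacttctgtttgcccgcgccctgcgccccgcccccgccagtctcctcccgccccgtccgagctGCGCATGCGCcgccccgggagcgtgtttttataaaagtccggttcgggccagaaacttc
Gpr183: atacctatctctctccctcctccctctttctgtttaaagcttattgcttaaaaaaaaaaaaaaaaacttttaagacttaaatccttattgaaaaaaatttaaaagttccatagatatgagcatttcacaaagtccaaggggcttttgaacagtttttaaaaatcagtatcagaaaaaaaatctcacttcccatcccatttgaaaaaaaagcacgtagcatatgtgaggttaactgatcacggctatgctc
The Klf2 window held 1 match to the MEF2-type pattern, 118 to 109 bases before the start. It also held 1 KLF core on the opposite strand, 19 to 15 bases before the start. The Cxcr4 window held 1 NRF1 motif, 59 to 50 bases before the start, and 1 KLF core, 219 to 215 bases before it. The Gpr183 window held none of these letters. Its GC content was 32 percent, against 71.2 percent for Klf2 and 61.2 percent for Cxcr4. Of 32851 promoter windows of this length in the table, 52 percent held CACCC, 3.2 percent the MEF2-type pattern and 0.782 percent the NRF1 motif. The matches do not overlap each other, the motifs were chosen with these genes in view, and a match is a description of letters and not of binding.

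Foxo1 and Cd55 fell beside Klf2. FOXO1 is a transcription factor that, with KLF2, keeps up the homing receptors of resting lymphocytes. A list of 12 genes joined this axis with other FOXO and KLF family genes, so its count is not of the axis alone. All were tested, and 5 fell and 0 rose, with a median change of −0.17. That is 41.7 percent lower, where the background is 8.21 percent. The list was chosen with earlier results of these data known, so this excess is a description and not a test. Foxo1 itself went from 96.6 ± 0.307 to 75.1 ± 4.55 (limma adjusted p = 0.000574). Cd55, a complement regulator, went from 30.2 ± 0.718 to 25.1 ± 0.974. Foxo3 and Klf7 also fell, and were named after their values were seen. Itgb7, a chain of the gut-homing integrin that binds MAdCAM-1, was at 15.2 ± 0.875 and 16.4 ± 0.615 and did not pass (limma adjusted p = 0.3), and it too was named after its values were seen. Scaled to the B cell identity genes, 0 of the 12 fell and 4 rose, with changes of −0.12 for Foxo1 (adjusted p = 0.0567) and 0.33 for Itgb7 (adjusted p = 0.00247). The median of the 12 was then 0.05, against 0.22 over all tested genes, of which 4851 rose and 173 fell. The count of 5 was 3 without a filter on low values and 3 without lenvatinib replicate 3.

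No other gene of the sphingosine 1-phosphate system passed. Of 15 genes for its other receptors, kinases, lyase, phosphatases and transporters, 10 were tested and 0 passed in limma, with a median of −0.03. Sgpp1, a phosphatase of the lipid, was at 16.7 ± 0.931 and 15 ± 0.136 (limma adjusted p = 0.118). It was 1 of 10 with an unadjusted limma p below 0.05, limma-voom called 0 as well, and 1 gene rose when DMSO replicate 3 was left out. Sphk2, a kinase that makes the lipid, was at 8.49 ± 1.59 and 9.66 ± 0.325, and S1pr3 at 1.13 ± 0.369 and 0.881 ± 0.143. Scaled to the B cell identity genes, 4 of the 10 rose, where 4851 of all tested genes rose and 173 fell. The median of the list was then 0.16, against 0.22 over all tested genes.

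Among 8 tested genes for other receptors that place B cells, 1 rose and 1 fell, 12.5 percent each way, which is near the 10.4 and 8.21 percent of all tested genes. Gpr55, a lipid receptor also found on intraepithelial T cells, went from 2.9 ± 0.168 to 6.46 ± 0.51 (change 0.94, limma adjusted p = 0.000124), in libraries with the higher T cell markers given above. Gpr132, a lipid receptor, went from 244 ± 9.51 to 219 ± 4.09, a fall not called with quantile normalization, without trend and robust moderation or with B cell identity scaling. Ptger4, a prostaglandin receptor, was at 31.1 ± 0.397 and 28.2 ± 1.26 and did not pass (limma adjusted p = 0.0898). Of 17 other chemokine receptors with values, 6 were tested, and Cxcr6, a receptor of tissue-resident lymphocytes, rose from 0.381 ± 0.155 to 3.1 ± 0.16, again beside those markers. Since its DMSO mean was below 1, Cxcr6 could enter the test only through its lenvatinib libraries. Ccr9, the receptor for homing to the small intestine, was at 1.2 ± 0.203 and 1.75 ± 0.208 and did not pass (limma adjusted p = 0.107).

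Ligands of these receptors were mostly at trace levels in the sorted cells. Of 11 ligand genes and oxysterol enzymes in the table, 8 had means below 1 in both groups, among them Cxcl12, Cxcl13, Ccl20 and Ch25h, and Ccl19 was listed at 0 throughout. The 3 tested genes gave 2 rises, where 10.4 percent of all tested genes rose. With a mean FPKM of at least 5 required, 2 were tested and 1 rose. With so few genes the count is not read as a result about ligands. Ccl21a, a ligand of CCR7, rose from 0.912 ± 0.187 to 7.65 ± 1.31, uncertain because near-identical gene copies can share its reads and because it too entered the test through its lenvatinib libraries. Cxcl10, a ligand of CXCR3 that interferon induces, rose from 11.2 ± 2.43 to 18.3 ± 1.1 (limma adjusted p = 0.00465). Cyp27a1, an oxysterol-forming enzyme, was at 4.83 ± 0.553 and 5.67 ± 1.2 and did not pass.

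Below the receptors lie signalling genes, and not all of them promote movement. Of 22 genes for G protein subunits, kinases, arrestins and motility factors 5 fell and 0 rose, with a median change of −0.01. That is 22.7 percent lower and 0 percent higher, where 8.21 and 10.4 percent of all tested genes were. This list too was chosen with earlier results of these data known. Gna13, a G protein subunit that restrains B cell migration, went from 93.4 ± 2.13 to 80.1 ± 0.725 (limma adjusted p = 0.00165). Rap1b, a small GTPase of integrin activation, went from 457 ± 6.55 to 416 ± 0.459, and Pik3cg, a lipid kinase activated by G proteins, from 14.8 ± 0.932 to 11.9 ± 0.374. The count of 5 became 3 with FPKM as deposited, without a filter, with the replicate block and with each single library left out in turn, and 2 in limma without trend and robust moderation. In limma-voom 9 fell and 1 rose. Scaled to the B cell identity genes 16 of 22 rose and 0 fell, where 4851 of all tested genes rose and 173 fell. The median of the list was then 0.23, near the 0.22 of all tested genes.

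**Figure D5:**
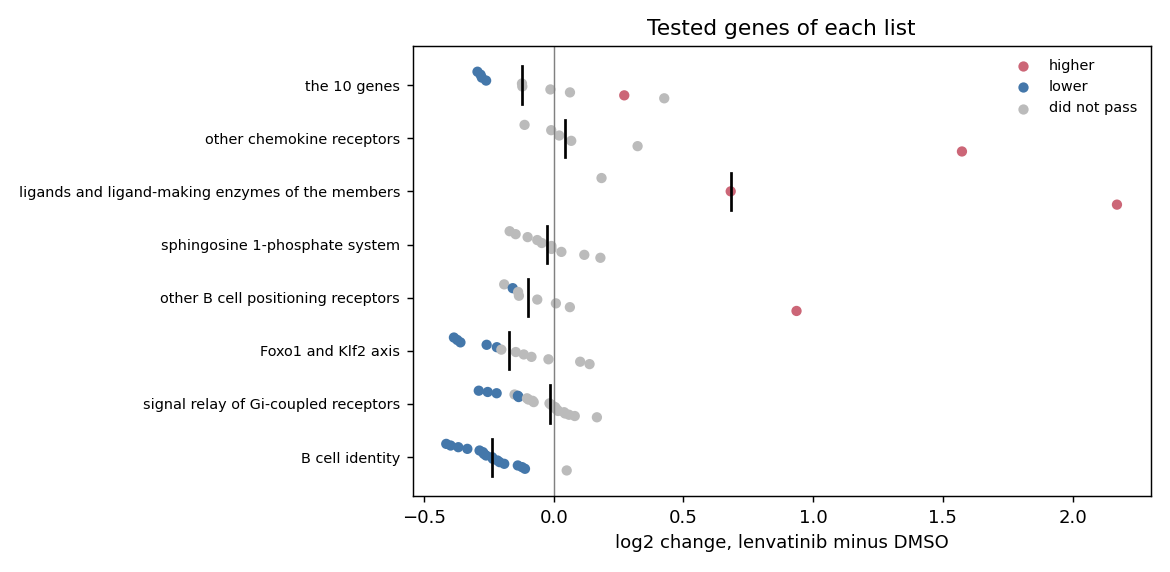
Log2 change of every tested gene in each list, lenvatinib minus DMSO under median-of-ratios scaling, with genes that rose in red, genes that fell in blue, those that did not pass in grey and a bar at the list's median. The medians of the 10 genes, the Foxo1 and Klf2 axis and the B cell identity list lie at −0.12, −0.17 and −0.24.

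For each gene that passed, the tested gene with the most similar course over the 6 libraries was found by Euclidean distance of centred log2 values. The nearest gene was Btg1 for Ccr7 (distance 0.03), Ly6e for Cxcr4 (0.03), Smg1 for S1pr1 (0.04), Snx9 for Klf2 (0.05) and Sod2 for Gpr183 (0.03). Btg1, an antiproliferative gene of resting lymphocytes, was at 706 and 588 in the DMSO and lenvatinib means, beside 654 and 540 for Ccr7. Sod2, the mitochondrial superoxide dismutase, was at 12.1 and 14.7, beside 37.4 and 45.5 for Gpr183.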

How the data were processed

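The submitters' processing notes name HTSeq, a read counter, and the genome build GRCm39. The HTSeq version, aligner, annotation and strand setting are not given in the sources used here. FPKM values were deposited in 1 table for all 6 libraries, with columns matched to samples by the names in the sample descriptions. FPKM is not a count, so tests were made on a log scale.

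Libraries were scaled by median-of-ratios factors (0.992 to 1.01) over the 9163 genes that reached an FPKM of 1 in all of them. A gene was tested if its scaled FPKM reached 1 in 3 or more libraries, with limma 3.58.1 (R 4.3.3) on log2(scaled FPKM + 1), with treatment as the only term, trend and robust moderation, and Benjamini-Hochberg adjustment over 9937 genes. The procedure was tested on simulated data. That simulation started from values already scaled, so it does not bear on the choice of scaling. The pseudocount of 1 understates changes of low genes such as Cxcr3.

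Whole reads were recovered from the FPKM steps for 99.97 percent of genes with any value (tolerance 1e-05 reads), with totals fixed by 9 mitochondrial genes of known length. Pairs of libraries of one group differed by 6.83 to 9.64 times counting noise (chi-square per degree of freedom), so none was the same library deposited again; separate preparations from one sample would not be told apart in this way.

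Named genes were the 10 members and up to 3 tested genes with the smallest p from each pathway list. The nearest gene to each member that passed was also named, with members and predicted genes left out of that search. Some genes that this rule names are not reported here. Members and lists were chosen with earlier results of these data known. Alternatives covered scaling, pseudocount, filter, replicate block, moderation, limma-voom and leaving out each library.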

Additional observations from a re-analysis of the deposited data

How the results depend on the processing

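Gpr183 stayed higher and past the threshold under all 17 alternatives run for it. Ccr7, Cxcr4, S1pr1 and Klf2 stayed lower under all 17 and past the threshold under 16, with adjusted p of at most 0.0353 in those, reached by Klf2 in limma without trend and robust moderation. The calls of these 4 were lost with scaling to the B cell identity genes (changes of −0.05 to −0.02), which moved the median of all tested genes by 0.22, called 5024 genes (4851 higher, 173 lower), and left 0 of the 10 genes lower and 5 higher. Changes that turned sign were Cxcr5 (0.23), Ccr6 (0.12) and Cd69 (0.124) under that scaling, and Cxcr5 with FPKM as deposited (0.0052). Leaving out each library in turn gave −0.0313 to 0.0004 for Cxcr5, and 1 to 2 genes higher, the 2 without DMSO replicate 1, when Cxcr3 passed. The 3 ratios kept their direction and moved by less than the spread between libraries with other pseudocounts and without any single library. All these settings were named with the design except the counts of each pathway list under them, which were added after seeing the data.

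Replicate numbers did not pair the libraries: deviations from the group means correlated at −0.007, 0.006 and −0.005 for numbers 1, 2 and 3. With a replicate block 1542 genes were called against 1854, with 1 and 4 of the 10 genes higher and lower as without it; limma-voom on the recovered reads called 2486. Depth was lowest for Cxcr3, at 43 to 116 reads, and the other 9 genes had at least 566 reads in every library.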
